A study of Homo sapiens with 5 samples.

Results

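The genes described here are the zinc finger genes whose symbols start with ZNF, ZBTB or ZFP followed by a digit. They were taken by symbol alone from the deposited table of MDA-MB-231 cells, a mesenchymal-like, triple-negative breast cancer line, and 94 of the 4202 listed genes qualified. Of these, 81 carry a ZNF symbol, 10 a ZBTB symbol and 3 a ZFP symbol (ZFP91, ZFP36L1 and ZFP36L2). Total RNA was sequenced after 4 h in 5 conditions: mock, CGI-1746 (named a BTK inhibitor in the labels), LU-102 (known as a blocker of the trypsin-like site of the proteasome), CGI-1746 plus LU-102, and bortezomib, the proteasome inhibitor that served as control. The sources used here give no doses, and all 5 groups are the same unmodified line. Each condition has 1 library, so no value has a replicate error, no difference was tested, and every ratio below compares 2 libraries. The mesenchymal markers of a fixed list were present, with mock levels of 92.1 for VIM, 17.7 for AXL, 9.64 for CAV1 and 4.91 for CD44. The luminal markers of that list were not analysed here, so triple-negative status was not examined.

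Most proteins of this family read DNA through tandem C2H2 fingers, each a short fold in which a pair of cysteines and a pair of histidines hold a zinc ion. Many carry a KRAB box at the amino end, which recruits TRIM28 and through it heterochromatin proteins to silence retroelements. ZBTB proteins carry a BTB domain instead, which pairs the proteins and binds corepressors or the CUL3 ubiquitin ligase. ZFP36L1 and ZFP36L2 use another finger type, CCCH, to bind AU-rich mRNAs and call in the deadenylation machinery. Most KRAB zinc finger genes are transcribed at low levels in most tissues, and many lie in clusters on chromosome 19.

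The coding units below show what such a finger looks like in 5 members on which the results turn. Each is the first unit of the commonest spacing in the longest coding sequence of GENCODE 29 (build GRCh38), 63 bases or 21 codons read 5′ to 3′, with the cysteine and histidine codons in capitals.
ZNF22: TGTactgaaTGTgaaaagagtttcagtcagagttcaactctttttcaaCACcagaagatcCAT
ZNF217: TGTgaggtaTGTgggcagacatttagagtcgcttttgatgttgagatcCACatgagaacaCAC
ZBTB18: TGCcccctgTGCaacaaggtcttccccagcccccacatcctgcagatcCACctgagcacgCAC
ZNF358: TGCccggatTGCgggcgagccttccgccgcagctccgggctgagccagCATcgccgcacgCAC
ZNF587: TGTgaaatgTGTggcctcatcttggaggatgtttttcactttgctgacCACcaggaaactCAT
In codons the units begin at position 57 of 224 in ZNF22, 130 of 1048 in ZNF217, 381 of 531 in ZBTB18, 153 of 568 in ZNF358 and 94 of 575 in ZNF587. These proteins hold 5, 8, 4, 9 and 13 fingers in the same order. ZNF22 had the highest level of the family in mock, ZNF217 and ZBTB18 the lowest ratios with the combination, and ZNF358 and ZNF587 were higher with bortezomib than in mock.

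Of the 94 genes, 91 are protein-coding, ZNF788P and ZNF818P are transcribed pseudogenes, and ZNF674-AS1 is an antisense RNA. Strand use in the counting is not given, so reads of ZNF674-AS1 and of its sense partner cannot be told apart. In 86 members the coding sequence held at least 1 C2H2 finger. By short sequence patterns, a KRAB box was found in 26 members and a SCAN box in 3 others (ZNF24, ZNF263 and ZNF496). In 47 with C2H2 fingers neither pattern was found and the symbol was not ZBTB. A pattern can miss a box that differs from it, so the 3 and the 47 may include KRAB genes. The median number of fingers was 11 in the KRAB genes and 5 in the other coding members. No C2H2 finger was found in ZFP36L1, ZFP36L2, ZNF703, ZNF330 and ZNF185, the last being an actin-associated LIM domain protein. Chromosome 19 held 33 of the members, 35.1%, against 8.0% of all listed genes with a position (330 of 4126), and 20 of the 26 KRAB genes lie there.

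Levels were low. They are the authors' normalized expression signal, of unstated scale, and behave like reads per transcript length. In mock the lowest member was at 1.05 (ZNF8), the median at 2.02 and the highest at 11.6 (ZNF22), against a median of 3.05 over all 4202 genes. The CGI-1746 library had a median of 2.12, the LU-102 library 1.89, the combination 2.04 and bortezomib 0.747, where the range was 0.233 to 6.50. Of the 94 members, 12 reached a level of 5 in mock and 2 did with bortezomib. KRAB genes were lower than the other coding members, with medians of 1.82 against 2.27 in mock and 0.682 against 0.753 with bortezomib. All listed genes have 5 levels that sum to at least 5.04, and 2 members (ZNF8 and ZNF672) would be under that sum without their bortezomib level. Members of the family below that sum were not analysed here.

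**Figure D1:**
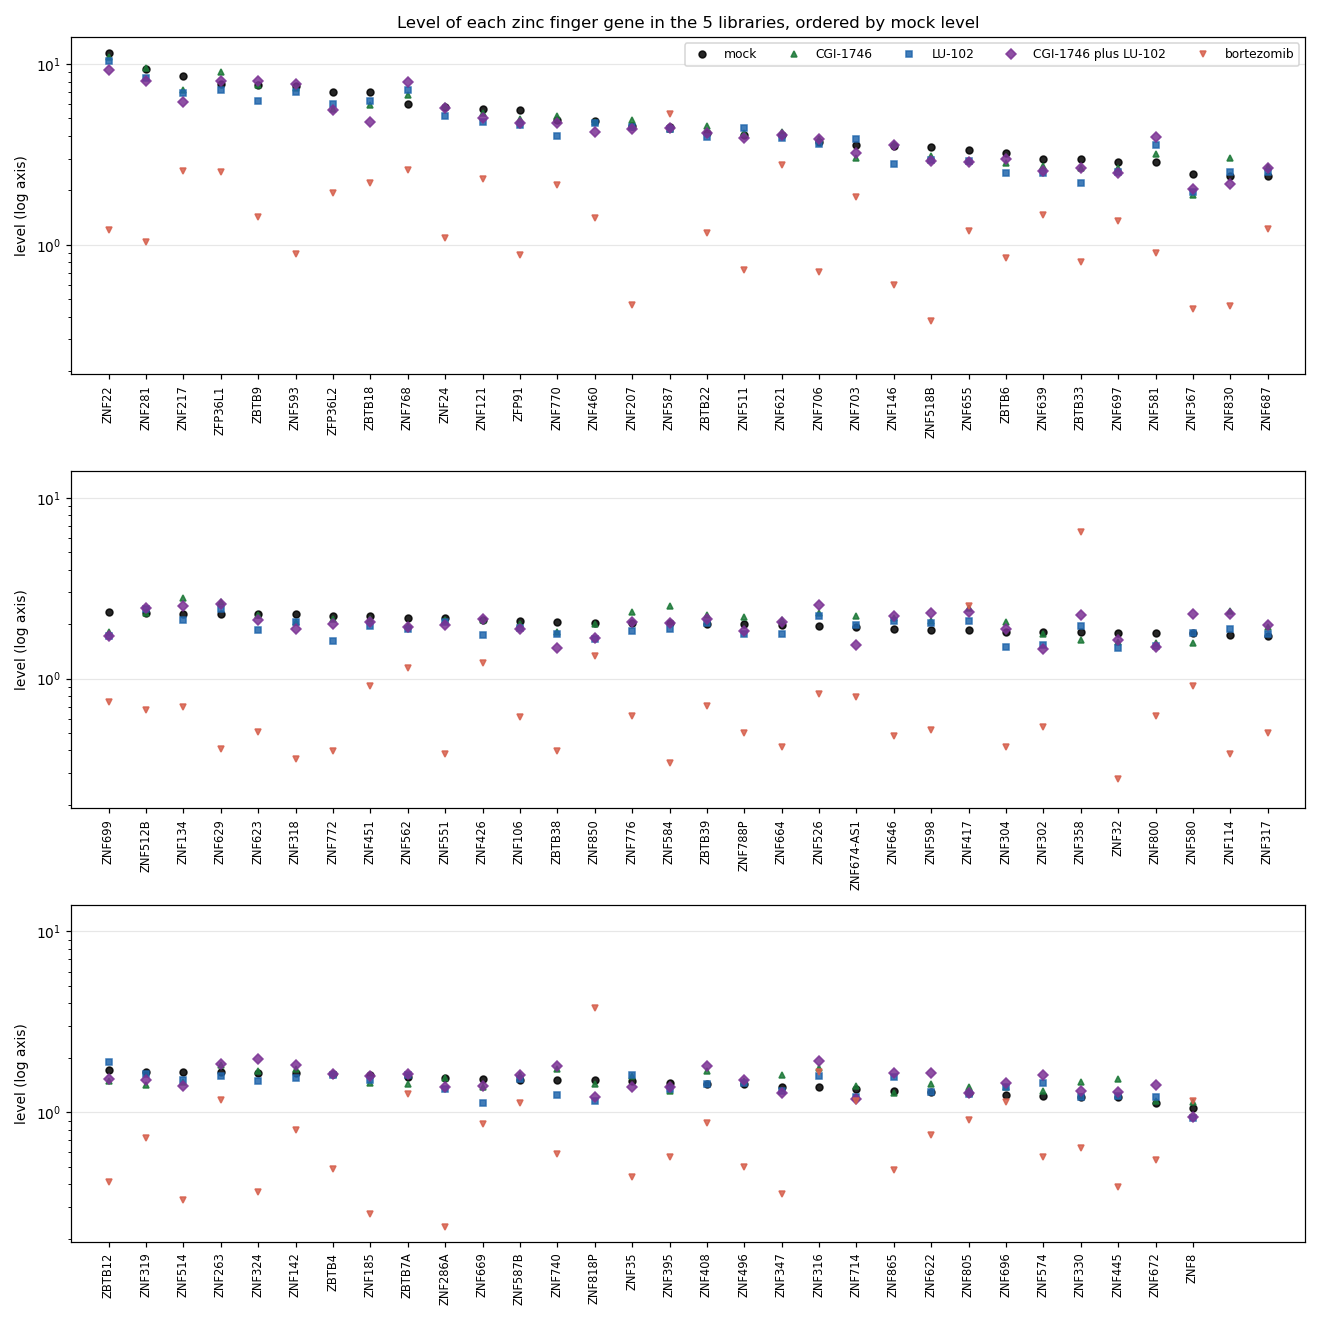
Level of each of the 94 zinc finger genes (vertical axis, authors' normalized signal, log scale) in the 5 libraries, ordered from left to right and top to bottom by mock level; each point is 1 library. The mock, CGI-1746, LU-102 and combination points of a gene lie close together, while the bortezomib point lies below the mock point for 88 genes and above it for 6, among them ZNF358, ZNF818P, ZNF587 and ZNF417.

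At such levels the counting of reads alone limits what a ratio can show. Reads behind a member, estimated from its level, its median GENCODE transcript length and the value of 1 read in each library, ranged from 15 to 826 in mock with a median of 114, and had a median of 43 with bortezomib. The counting error of a log2 ratio of levels, without the pseudocount, had a median SD of 0.193 for CGI-1746 against mock and 0.262 for bortezomib against mock. These are rough, because the authors' transcript lengths are unknown, and they leave out all variation between cultures. Effects below are log2((level + 1)/(mock level + 1)), for genes that reached a level of 1 in one or both libraries. They were counted at 2-fold and at a smaller threshold, level + 1 at least 25% higher or 20% lower than in mock. The pseudocount of 1 understates the change of genes near a level of 1, so both levels are given with most effects of single genes.

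With CGI-1746 alone the family stayed near mock. Its median effect was 0.02, against -0.02 over all 4186 genes compared, and single members ranged from -0.27 to 0.29. No member reached 2-fold higher or lower, where 0.119% and 0.0478% of all genes did. None reached the smaller threshold, where 1.53% of all genes were higher and 0.836% lower. The highest was ZNF114, a KRAB gene, at 1.74 in mock and 2.36 with CGI-1746. ZNF417 followed at 1.86 and 2.45 (effect 0.27, counting SD 0.205). The lowest was ZNF367 at 2.47 in mock and 1.88 with CGI-1746 (effect -0.27, counting SD 0.177). The mRNA decay factors stood apart from each other in this comparison: ZFP36L1 was higher, at 7.72 in mock and 9.05 with CGI-1746 (effect 0.20), and ZFP36L2 lower, at 7.0 and 5.67 (effect -0.26, counting SD 0.103).

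With LU-102 alone the median effect was -0.06, the same as that of all 4193 genes compared, and 65 of 94 members were below mock, as were 2691 of 4193 genes. No member reached 2-fold higher or lower, where 0.0715% and 0.0% of all genes did. None reached the 25% threshold, where 2.03% of all genes were higher and 1.43% lower. ZBTB33, the methyl-CpG binding repressor Kaiso, was the lowest, at 2.97 in mock and 2.18 with LU-102 (effect -0.32, counting SD 0.161). ZNF581 was the highest, at 2.86 and 3.59 (effect 0.25), and ZNF768, which binds MIR repeats, followed at 6.0 and 7.18 (effect 0.22).

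With both inhibitors the median effect was -0.02, against 0.03 over all 4189 genes. No member reached 2-fold in either direction, where 0.167% of all genes were higher and 0.0477% lower. Past the smaller threshold 2 members were higher, where 5.42% of all genes were, and 2 were lower, where 1.38% were. These shares are 2.13% of the members each way. Relative to the all-gene median 1 member was higher (4.34% of all genes) and 4 were lower (1.93%). Under median-of-ratios scaling 0 were higher and 6 lower, with ZNF768 at 0.25 and ZNF581 at 0.27. The shares of all genes under this scaling are not given here. Its all-gene median was -0.04, in place of 0.03. ZNF581 was at 2.86 in mock, 3.19 under CGI-1746, 3.59 under LU-102 and 3.96 under both (effect 0.36, counting SD 0.240). The gene overlaps ZNF580 and shares 14.4% of its 75-base windows with it, so its reads may be split between both. ZNF768 was at 6.0, 6.77, 7.18 and 7.92 in the same order (effect 0.35, counting SD 0.129). In both genes each single inhibitor lay between mock and the combination.

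The lower members with the combination were among the most abundant of the family. ZBTB18, a transcriptional repressor with 4 fingers and a BTB domain, was at 6.97 in mock, 5.93 under CGI-1746, 6.27 under LU-102 and 4.78 under both (effect -0.46, counting SD 0.107). ZNF217, a corepressor-complex protein encoded in a region often amplified in breast tumours, was at 8.58, 7.15, 6.95 and 6.20 (effect -0.41, counting SD 0.0773). Both were below mock in every inhibitor library and lowest with the combination, and their bortezomib levels were lower still, at 2.18 and 2.55. Relative to the all-gene median, 1 member was 25% higher (4.34% of all genes) and 4 were 20% lower (1.93%).

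By mock level, the combination effects of the members had a median of 0.05 under a level of 2 (45 genes), -0.08 from 2 to 5 (37 genes) and -0.16 at 5 and above (12 genes). Over all listed genes the same bands gave 0.05, 0.01 and 0.05. Among the 12 most abundant members 8 were below mock and 4 above, ZNF768 the highest, while of all 1338 genes in that band 531 were below and 807 above. The medians of the structural classes lay close together. They were -0.01 for KRAB genes, -0.03 for C2H2 genes in which no other box was found and -0.04 for ZBTB genes. The 33 members on chromosome 19 had a median of 0.01, against 0.13 for the other 295 listed genes of that chromosome.

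**Figure D2:**
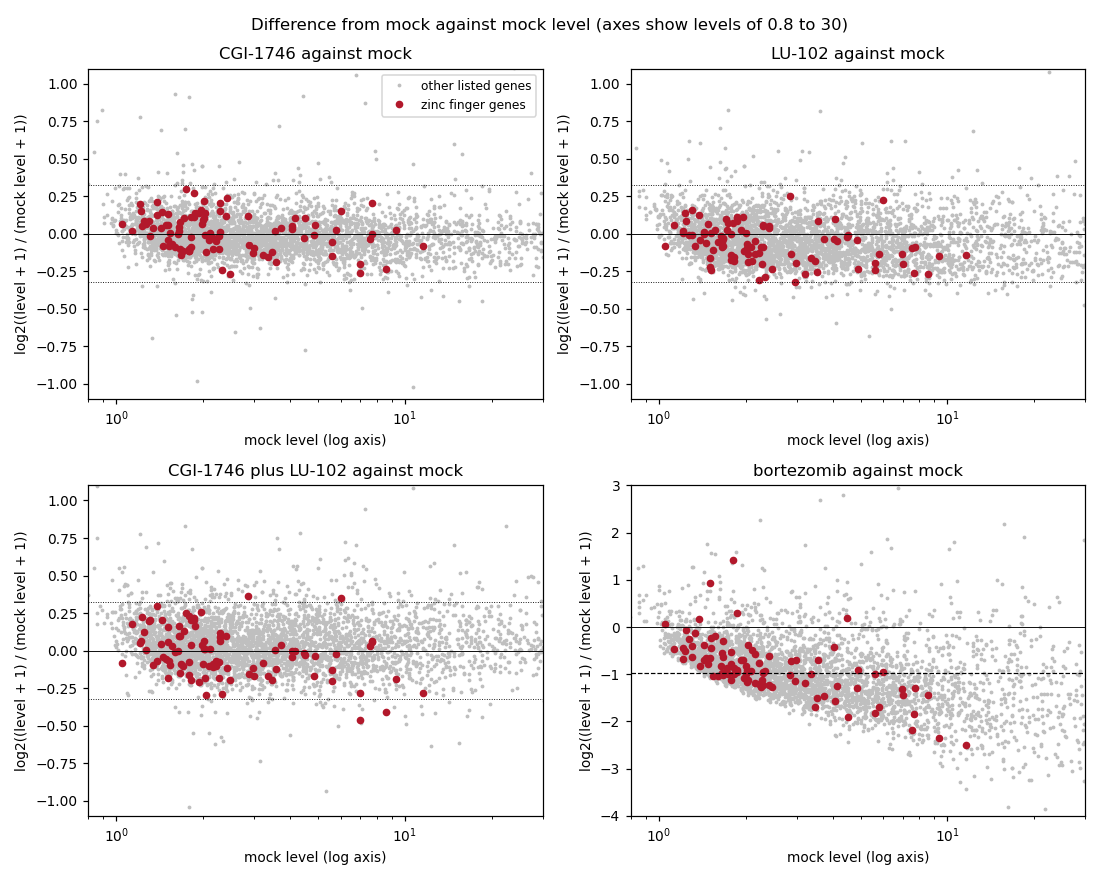
Effect of each treatment (vertical axis, log2((level + 1)/(mock level + 1))) against mock level (horizontal axis, log scale), with zinc finger genes in red and other listed genes in grey; each point is 1 gene, dotted lines mark the 25% and 20% threshold and the dashed line the all-gene median with bortezomib of -0.98. The axes cover mock levels of 0.8 to 30 and leave out points beyond their limits. Zinc finger genes lie within the grey cloud in every panel, and with bortezomib they run lower at higher mock level.

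The base composition of a member's transcript moved with its effect. Members' longest GENCODE transcripts had a median GC content of 47.5%, from 34.9% (ZBTB6) to 71.1% (ZNF865), against a median of 51.5% over all listed genes. With LU-102 the 47 members at or above the members' median GC had a median effect of -0.00 and the 47 below it -0.13. With the combination these values were 0.06 and -0.10. All listed genes split at the same GC gave 0.01 and -0.15 with LU-102 and 0.09 and -0.06 with the combination. Across the 94 members the effect correlated with GC content at r = 0.68 (Spearman's rho 0.67) for LU-102, 0.62 (0.63) for the combination, 0.18 (0.24) for CGI-1746 and 0.25 (0.26) for bortezomib. Over all listed genes the values were 0.59 (0.66) with LU-102 and 0.50 (0.59) with the combination. These are descriptions across genes that share libraries and a mock sample, and genes are not independent replicates.

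The members past the smaller threshold with the combination follow the same order of GC. ZNF768 at 62.9% and ZNF581 at 59.6% were higher, and ZNF217 at 43.5% and ZBTB18 at 42.8% were lower. ZBTB33, the lowest member with LU-102, had 37.4%. The part of base composition in these ratios was not tested.

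**Figure D3:**
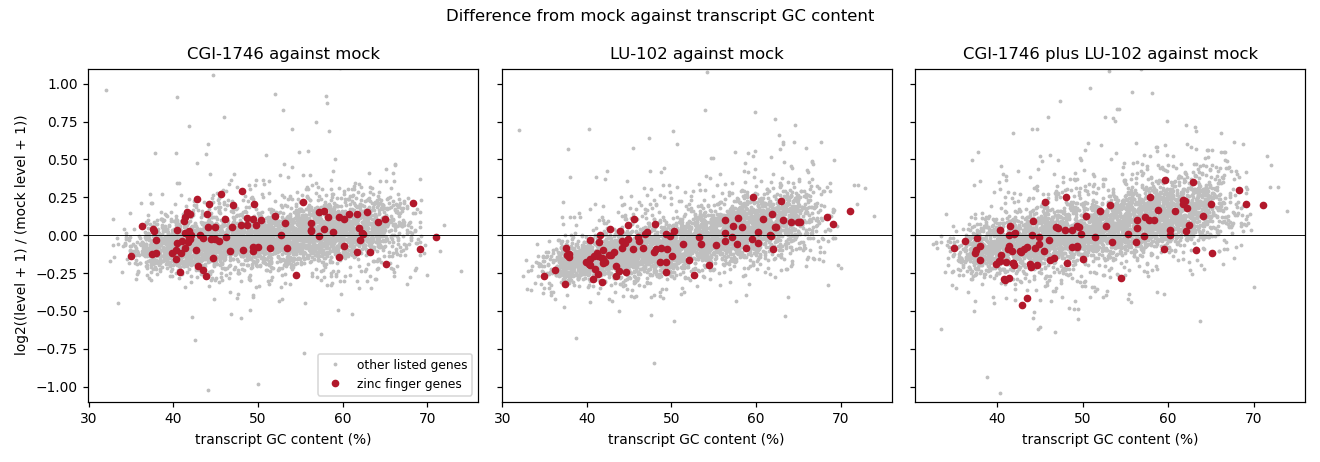
Effect of CGI-1746, LU-102 and their combination against mock (vertical axes, log2((level + 1)/(mock level + 1))) against the GC content of the longest transcript in percent (horizontal axes), with zinc finger genes in red and other listed genes in grey; each point is 1 gene, and points beyond the axes are left out. Members and other genes climb together with GC content in the LU-102 and combination panels, and the slope is least with CGI-1746.

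Set against the single inhibitors, few members were past the smaller threshold with the combination, and few of all listed genes were. The members' shares were 1.06% higher and 2.13% lower against CGI-1746, and 1.08% each way against LU-102. Against CGI-1746 the median was -0.04, where all genes had 0.04. ZNF580 was past the 25% threshold (3.39% of all genes), at 1.57 with CGI-1746 and 2.26 with the combination (effect 0.34, counting SD 0.322). Over 20% lower (0.668% of all genes) were ZNF830, a splicing-associated protein, at 3.02 and 2.16 (effect -0.35, counting SD 0.209), and ZNF674-AS1 at 2.23 and 1.54 (effect -0.35, counting SD 0.313).

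Against LU-102 the median was 0.05 over 93 members, where all genes had 0.08. ZBTB9 was over 25% higher (3.01% of all genes), at 6.21 with LU-102 and 8.05 with the combination. The level of this gene is uncertain, since its reads may not all be its own. ZBTB18 was over 20% lower (0.978% of all genes), at 6.27 and 4.78 (effect -0.33, counting SD 0.109). Both of these comparisons use the combination library, so they are not independent of the one against mock.

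Departure from additivity compares the effect of the combination with the sum of the effects of CGI-1746 and LU-102, as a log2 difference. Its median was 0.02 for the members and 0.10 over 4197 genes. No member departed 2-fold, where 0.0715% of all genes did in each direction. At the smaller threshold 3 members were above additivity (5.98% of all genes): ZNF580 at 0.34, ZBTB9 at 0.33 and ZBTB33 at 0.33. None of these 3 was past it under median-of-ratios scaling or relative to the all-gene median, where 0 members were above additivity and 2 below. ZBTB33 was at 2.97 in mock, 2.64 under CGI-1746, 2.18 under LU-102 and 2.66 under both, so the combination lay at the level of CGI-1746 alone. Below additivity were 2 members (1.57% of all genes), ZNF830 at -0.39 and ZNF674-AS1 at -0.37. ZNF830 was at 2.41, 3.02, 2.51 and 2.16 in the same order, above mock with each single inhibitor and below it with both.

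With bortezomib most members were at lower levels than in mock, and so were most listed genes. The median effect was -0.93, against -0.98 over 4189 genes, and 88 of 94 members were below mock. At 2-fold 34 members were lower, 36.2% of them, where 48.1% of all genes were, and 1 was higher, where 1.38% were. The members' levels summed to 268 in mock and 98.9 with bortezomib, 0.270% and 0.0730% of all levels in those libraries. Protein-coding genes as a whole made up 38.3% of the sum of levels in mock and 9.42% with bortezomib (levels are not shares of reads). The part of this shift in the members' values was not tested. The levels are a normalized signal of a bulk library, so neither the number of cells nor the RNA per cell can be read from them. With a pseudocount of 0.1 in place of 1, 68 members were 2-fold lower (70.7% of all genes) and 2 higher (1.96%).

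The bortezomib effect was larger at higher mock level, and the pseudocount alone shrinks ratios at low level. Under a mock level of 2 the members' median was -0.66, the same as that of all genes there, and 5 of 45 were 2-fold lower, against 185 of 1257 genes. From 2 to 5 it was -1.02 against -1.05, with 19 of 37 members and 864 of 1594 genes 2-fold lower. At 5 and above it was -1.57 against -1.45, with 10 of 12 members and 966 of 1338 genes 2-fold lower. Within each band the members' median lay close to that of all genes, and 12 of 94 members were in the highest band, against 1338 of 4202 genes. Across the 94 members the effect correlated with log2(mock level + 1) at r = -0.65 (Spearman's rho -0.70). Over all genes the values were -0.37 (-0.53), and over protein-coding genes -0.53 (-0.56). The mock level is also the denominator of the effect, so the effect and the mock level are not independent.

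Relative to the all-gene median, 3 members were 2-fold lower with bortezomib (7.83% of all genes). ZNF22 was at 11.6 in mock and 1.21 with bortezomib, 9.57-fold lower in level (effect -2.51, counting SD 0.202), and between 9.31 and 10.9 in the 3 other libraries. ZNF281, a GC-rich DNA binding factor linked to epithelial to mesenchymal transition, was at 9.35 and 1.04 (effect -2.35). ZNF593, the homologue of a yeast export factor of the large ribosomal subunit, was at 7.56 and 0.891 (effect -2.18). In each of the 3 genes the bortezomib library was lowest, and no other library was past the smaller threshold.

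Other members with roles outside DNA binding were also lower. ZNF207, the spindle protein BuGZ, was at 4.51 in mock and 0.463 with bortezomib, 9.74-fold lower in level and the largest ratio of the family. ZFP91, a ubiquitin ligase, was at 5.60 and 0.874 (effect -1.82), though 31.3% of its windows are shared with the ZFP91-CNTF readthrough. ZNF598, which ubiquitinates collided ribosomes, was at 1.86 and 0.517 (effect -0.92). All 11 measured members of a list of ribosome, RNA and ubiquitin roles were lower, 5 of them 2-fold, with a median of -0.94, close to the all-gene median of -0.98 and to the 48.1% of all genes that were 2-fold lower. Of 6 measured activators and corepressor-complex members, 3 were 2-fold lower: ZNF281, ZNF217 and ZNF367, again near the share over all genes. The mRNA decay factors were at 2.54 (ZFP36L1, effect -1.30) and 1.94 (ZFP36L2, effect -1.44) with bortezomib.

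All 10 ZBTB genes were below mock with bortezomib, 6 of them 2-fold, with a median of -1.13; over all genes 3862 of 4189 were below mock and 2015 were 2-fold lower, with a median of -0.98. The lowest were ZBTB9, at 7.66 in mock and 1.43 (effect -1.83), and ZBTB18, at 6.97 and 2.18 (effect -1.32). ZBTB22, ZBTB6, ZBTB33 and ZBTB38 followed, with effects of -1.26, -1.19, -1.14 and -1.12. At a pseudocount of 0.1 these were -1.76, -1.81, -1.76 and -2.11, with ZBTB18 at -1.63 and ZBTB9 at -2.34. The order of these genes thus depends on the pseudocount. ZBTB12, ZBTB4 and ZBTB39 had effects of -0.94, -0.83 and -0.82. ZBTB7A, the repressor of fetal globin genes also called LRF, stood at 1.56 in mock and 1.26 with bortezomib (effect -0.18), the smallest difference of the 10. Its levels with the other inhibitors lay between 1.44 and 1.62.

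The KRAB genes had a median of -0.84 with bortezomib and 6 of 26 were 2-fold lower. C2H2 genes in which no other box was found had -0.96 and 18 of 47. Both shares were under the 48.1% over all genes. The mock levels of the KRAB genes were lower, and this difference was not adjusted for level. Members with 10 or more fingers had a median of -0.73, those with 5 to 9 fingers -0.87 and those with 1 to 4 fingers -1.19. The all-gene median was -0.98. These groups were not adjusted for mock level either, and the part of finger number was not tested. ZNF460, the most abundant KRAB gene in mock, was at 4.85 in mock and 1.40 with bortezomib (effect -1.28). ZNF621 stood at 4.05 and 2.78 (effect -0.42) and ZNF850, with 29 fingers, at 2.03 and 1.33 (effect -0.38).

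**Figure D4:**
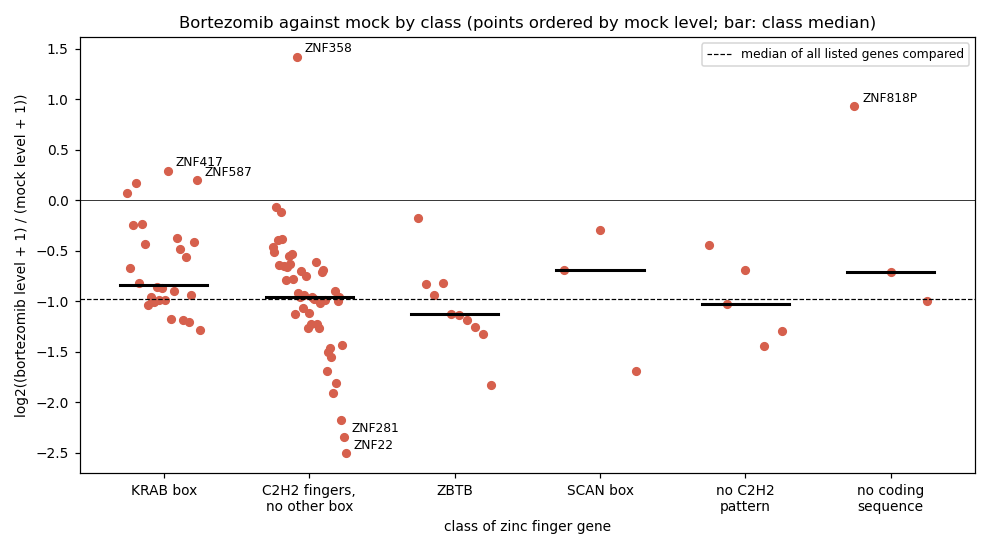
Effect of bortezomib against mock (vertical axis, log2((bortezomib level + 1)/(mock level + 1))) for the members of each structural class (horizontal axis); each point is 1 gene, points within a class are ordered by mock level from left to right, bars are class medians and the dashed line is the all-gene median. Most points of every class lie below 0, the class medians range from -1.13 (ZBTB) to -0.70 (SCAN box), and ZNF358 and ZNF818P stand highest.

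A few members were not lower with bortezomib. ZNF358, a gene of 9 fingers, was at 1.81 in mock, 1.64 under CGI-1746, 1.95 under LU-102, 2.24 under both and 6.50 under bortezomib. That is 3.59-fold in level, an effect of 1.42 with a counting SD of 0.209, from about 60 and 236 reads. It was the only member 2-fold higher than mock. Of its windows 18.5% are shared with another gene model, and its listed neighbour PNPLA6, 13138 bp away, was at 1.24 in mock and 1.02 with bortezomib. The pseudogene ZNF818P was at 1.51 in mock, 1.44, 1.15 and 1.21 with the other inhibitors, and 3.77 with bortezomib (effect 0.93, counting SD 0.231). In both genes the bortezomib library stood above the other 4.

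The paralogues ZNF587 and ZNF417, KRAB proteins that bind endogenous retroviruses, were also above mock. ZNF587 was at 4.48 in mock, 4.37 under CGI-1746, 4.39 under LU-102, 4.42 under both and 5.27 under bortezomib (effect 0.19, counting SD 0.0923). ZNF417 was at 1.86, 2.45, 2.09, 2.33 and 2.50 (effect of bortezomib 0.29, counting SD 0.200). Their coding sequences match at 1709 of 1725 bases (99.1%), and 31.5% of ZNF417 windows and 15.3% of ZNF587 windows are shared, so reads could be split between them and both levels are uncertain. ZNF587B, 3620 bp from ZNF587, was at 1.51 in mock and 1.13 with bortezomib. The remaining members above mock were ZNF316, at 1.38 and 1.67, and ZNF8, at 1.05 and 1.15. Relative to the all-gene median these 6 genes, ZNF358, ZNF818P, ZNF417, ZNF587, ZNF316 and ZNF8, were 2-fold higher, where 7.52% of all genes were. Without its bortezomib level ZNF8 would be under the lowest sum of any listed gene, so its place in this count is not independent of that level. Of its windows 19.4% are shared with other gene models, and its levels are near the lowest of the family.

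Genes that work with the family were given by lists chosen for their roles. Of 12 KRAB corepressor and heterochromatin genes, 8 were 2-fold lower with bortezomib, with a median of -1.38, and none was past the smaller threshold with the combination. Beside these stand 48.1% of all genes 2-fold lower with bortezomib. The mock levels of the 12 genes range from 1.38 (SUV39H1) to 38.4 (TRIM28). Over all genes, 185 of 1257 were 2-fold lower under a mock level of 2, 864 of 1594 from 2 to 5 and 966 of 1338 at 5 and above. TRIM28, the corepressor of KRAB proteins, was at 38.4 in mock, 40.4 under CGI-1746, 39.6 under LU-102, 45.1 under both and 13.4 under bortezomib. DNMT1, the maintenance DNA methyltransferase, was at 3.96 in mock and 0.448 with bortezomib, and was between 3.82 and 3.96 in the other libraries. Of the BTB partners HDAC3 was at 3.05 and 1.64, and KEAP1, the CUL3 adaptor that degrades NRF2, at 2.77 and 0.852. Of 18 zinc finger factors under other symbols 11 were 2-fold lower with bortezomib, with a median of -1.15, against 2015 of 4189 and -0.98 over all genes. KLF16 was an exception, at 3.24 in mock and 3.28 with bortezomib.

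Promoter windows were available for 81 of the 94 members in the RefSeq table (GRCh38.p14), each 250 bases before to 50 after a transcript start, taking the most 5′ start in that table. Their median GC content was 64.0%, against 65.3% for 3338 listed genes and 58.3% for all 27305 genes. The GC box GGGCGG was found on either strand in 76.5% of the members' windows, 73.1% of the listed genes' and 44.5% of all genes'. The ETS-type motif CCGGAAG was in 38.3% (31 of 81), 24.2% and 10.6%, and the TATA motif TATAAA in 1.23%, 6.44% and 12%. CCAAT was in 40.7%, 40.0% and 35.7%, the E-box CACGTG in 8.64%, 11.7% and 7.41%, and the cyclic AMP element TGACGTCA in 7.41%, 3.77% and 1.97%. A match is a run of letters and not a measured binding site.

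The windows of the highest and lowest members with the combination and of the highest with bortezomib are shown 5′ to 3′ with motif matches in capitals. The first is chr19:55643399-55643698, the second chr1:244048403-244048702 (the most 5′ of 3 starts) and the third chr19:7515853-7516152, all on the plus strand of GRCh38.p14.
ZNF581: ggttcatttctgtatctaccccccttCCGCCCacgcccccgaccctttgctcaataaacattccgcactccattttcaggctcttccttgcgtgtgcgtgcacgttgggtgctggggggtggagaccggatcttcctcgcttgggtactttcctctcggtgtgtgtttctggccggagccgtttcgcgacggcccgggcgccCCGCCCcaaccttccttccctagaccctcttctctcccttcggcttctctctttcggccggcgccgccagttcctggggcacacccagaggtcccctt
ZBTB18: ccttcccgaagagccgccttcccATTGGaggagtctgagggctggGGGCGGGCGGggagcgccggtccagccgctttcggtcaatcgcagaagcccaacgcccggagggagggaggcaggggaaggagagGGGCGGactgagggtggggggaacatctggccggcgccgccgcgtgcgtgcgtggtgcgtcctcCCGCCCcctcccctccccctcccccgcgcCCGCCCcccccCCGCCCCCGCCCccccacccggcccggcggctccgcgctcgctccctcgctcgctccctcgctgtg
ZNF358: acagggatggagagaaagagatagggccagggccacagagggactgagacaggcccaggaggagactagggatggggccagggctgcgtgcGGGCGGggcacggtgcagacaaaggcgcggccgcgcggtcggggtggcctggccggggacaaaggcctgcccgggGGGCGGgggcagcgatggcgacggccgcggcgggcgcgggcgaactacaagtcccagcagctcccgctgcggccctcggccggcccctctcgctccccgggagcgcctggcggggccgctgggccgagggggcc
The GC box occurs 2 times in the ZNF581 window, 7 times in the ZBTB18 window, overlaps counted, and 2 times in the ZNF358 window. CCAAT occurs once, in reverse, in that of ZBTB18. The window of ZBTB18 is 77.7% GC, although its transcript has the lowest GC content of the 4 members past the smaller threshold with the combination.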

How the data were processed

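Per the file headers, the deposited values are least squares means, a normalized signal that the authors computed for each gene in each library. The sources used here do not give its scale, aligner, annotation, strand or normalization. Partek and hg38 are named in the submitters' processing notes. The deposited signal was used unchanged, and 7 columns that repeat a library were not used. What 1 read adds to level times length was fitted in each library on 42 short RNA genes, in steps of 0.5 reads. Genes with high values were left out. Among the genes kept, 30 of 32 in mock and with CGI-1746 and 30 of 31 with LU-102 fell within 0.1 of whole steps. With both inhibitors 30 of 30 did, and with bortezomib 22 of 23. By this description the levels behave as reads over length. The step was chosen on these same genes, so this is not an independent check. Members were taken by symbol. Effects are log2 ratios of level + 1 of genes that reach a level of 1 in one or both libraries, counted at 2-fold and at 25% higher or 20% lower, with no test. Finger, KRAB and SCAN patterns were sought in translated GENCODE 29 coding sequences, and read sharing as identical 75-base windows of transcripts. Positions are RefSeq GRCh38.p14. The members, lists and tests were chosen with earlier results of these data known. Genes were named by rule: the 8 highest and 8 lowest members per treatment with a level of at least 2, the 10 of highest level in mock, the 3 highest and 3 lowest departures from additivity, all ZBTB and ZFP36-type genes, and up to 4 of each role list and structural class. ZNF674-AS1, ZNF316, ZNF8, ZNF587B, ZNF672, ZNF865 and the neighbouring genes were added after their values were seen. Alternatives were the pseudocount, the filter, median-of-ratios scaling, centring on the all-gene median, and subsets of the members. The counting rule was also run on simulated counts, drawn from mock levels at mock depth with no variation between cultures. That run cannot show how the rule behaves between cultures or at bortezomib levels. Software was matplotlib 3.10.9, scipy 1.17.1, pandas 2.3.3 and numpy 2.4.6 under Python 3.11.15.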

Additional observations from a re-analysis of the deposited data

How the results depend on the processing

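No paired analysis was possible because each condition has 1 library, and leaving out a replicate was not possible either. Counts are of members past 2-fold for bortezomib and 25% higher or 20% lower elsewhere. They show how the settings move the members' counts, and not how the family differs from other genes. Under the pseudocounts and the scaling, shares of all genes are given only for bortezomib at 0.1 (70.7% lower and 1.96% higher). The all-gene median with bortezomib moved too, to -1.53 at a pseudocount of 0.1 and -0.38 at 5. With a pseudocount of 0.1, 5 members were counted for CGI-1746 (0 at a pseudocount of 1), 8 for LU-102 (0), 11 for the combination (4), 70 for bortezomib (35), 5 for the combination against CGI-1746 (3), 9 against LU-102 (2) and 12 for departure from additivity (5). With a pseudocount of 5 these were 3 for bortezomib and 0 for the combination, its comparisons with either inhibitor and departure. Median-of-ratios scaling moved the all-gene median with bortezomib from -0.98 to -0.44 and gave 14 members (4 higher and 10 lower, against 1 and 34), 5 for the combination against CGI-1746 (0 higher and 5 lower, against 1 and 2), 1 against LU-102 (lower) and 2 for departure (0 higher and 2 lower, against 3 and 2). For the combination against mock it gave 0 higher and 6 lower, against 2 and 2. Under it the all-gene median of departure went from 0.10 to -0.03. Centring on the all-gene median gave 9 members for bortezomib (6 higher and 3 lower), 1 for the combination against LU-102 (lower) and 2 for departure (both lower), and turned the members' median with bortezomib from -0.93 to 0.05. Without the 12 members that share windows, 1 was counted for the combination against LU-102. No named member past its threshold changed direction under the pseudocounts, filters, scaling or centring tried. A subset by fingers in RefSeq proteins was not run, and GENCODE coding sequences took its place after the data were seen. Read depth limits single members: the counting SD of a member's log2 ratio of CGI-1746 to mock, taken without a pseudocount, had a median of 0.193.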
